A study of Mus musculus with 3 samples.

Results

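The calcium/calmodulin-dependent protein kinase (CaM kinase) genes and their inhibitors described here are 10 genes, Camk2a, Camk2b, Camk2d, Camk2g, Camk2n1, Camk2n2, Camk4, Camkk1, Camkk2 and Camkv, taken by gene symbol out of 39377 rows. Total RNA was sequenced from whole hippocampus, a mix of cell types, of wild-type (WT) C57BL/6 mice at postnatal day 14. The samples form 1 group of 3 libraries, here called libraries 1, 2 and 3, and the labels give no treatment, allele or transgene. They do not say whether each library came from its own animal or from pooled animals, and the p-values here cover the spread of these samples alone, which may be technical. Since there is 1 group, genes were compared with each other within each library, in FPKM (fragments per kilobase of transcript, scaled to the mapped fragments of the library), a level per length. All 10 genes were above 1 FPKM in all 3 libraries. By mean over the libraries, 13337 of the 39377 rows reached at least 1 FPKM, out of 19046 genes above 0 in any library.

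CaM kinases turn a rise of calcium in a neuron into phosphorylation of other proteins. Calmodulin loaded with calcium binds CaM kinase II, which then phosphorylates its own regulatory segment and stays active after calcium has fallen, a step long studied in hippocampal synaptic plasticity. CaM kinase II is a large ring of subunits from the Camk2 genes, the Camk2n genes encode small proteins that bind and block the active kinase, and the Camkk genes encode upstream kinases that switch on CaM kinase I and CaM kinase IV.

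The coding sequence around the site that CaM kinase II phosphorylates on itself is shown because all Camk2 genes carry this regulatory site, and reads from it have to be told apart to give each gene its own level. Each window starts 3 codons before the codon of that threonine, runs over 28 codons into the calmodulin-binding stretch, and spans 2 exons. It is given 5′ to 3′ on the coding strand, from GENCODE M21 transcripts on GRCm38, with capitals for the bases that are not the same in all 3 genes. The genomic spans include the intron between the exons: chr11:5988114-5989008 on the minus strand for Camk2b, chr3:126797732-126798267 on the plus strand for Camk2d and chr14:20760157-20760450 on the minus strand for Camk2g.
Camk2b: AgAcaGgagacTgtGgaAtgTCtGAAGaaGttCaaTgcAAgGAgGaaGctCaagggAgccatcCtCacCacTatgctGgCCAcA
Camk2d: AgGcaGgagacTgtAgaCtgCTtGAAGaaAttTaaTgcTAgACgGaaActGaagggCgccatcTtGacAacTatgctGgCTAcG
Camk2g: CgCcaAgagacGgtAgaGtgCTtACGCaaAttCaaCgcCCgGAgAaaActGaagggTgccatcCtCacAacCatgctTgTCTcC

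Of the 84 bases, 32 were not shared by all 3 genes. Pair by pair, identity in this window was 78.6% for Camk2b and Camk2d, 69.05% for Camk2b and Camk2g, and 70.2% for Camk2d and Camk2g. Camk2a, whose window is not shown, was 91.7% identical to Camk2b, the closest pair. The longest coding transcript of each of the 10 genes held no stretch of 50 bases that occurs in a transcript of another of the 10. Outside the 10, the transcript of Camk2a shared 22 of its 4921 such stretches, 0.447%, with transcripts of 248 other genes.

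For the inhibitors the longest stretch that both genes translate into the same residues is shown, since it lies in the part of the protein that binds the kinase. It runs over 15 codons in 2 exons, at chr4:138455345-138456755 on the plus strand for Camk2n1 and chr16:20620206-20621032 on the minus strand for Camk2n2 in GRCm38, with the intron counted in. Capitals mark the bases that differ.
Camk2n1: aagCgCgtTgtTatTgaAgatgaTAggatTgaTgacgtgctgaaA
Camk2n2: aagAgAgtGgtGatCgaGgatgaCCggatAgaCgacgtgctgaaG

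The segments encode the same 15 residues, yet 11 of their 45 bases differ, so fragments from this stretch also carry differences that separate the inhibitor genes.

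The tissue label was checked against marker genes. All 7 markers of hippocampal fields, led by Bok, reached 1 FPKM in each library. So did all markers of interneurons (7, led by Sst), astrocytes (6, led by Aldoc), the oligodendrocyte lineage (7, led by Mbp), microglia (5, led by P2ry12) and endothelial cells (5, led by Cldn5). The summed level of 6 excitatory neuron markers, led by Slc17a7, was between 692 and 776 FPKM. The summed level of 8 markers of cerebellum and striatum, led by Ppp1r1b, was 24.0 to 32.7 FPKM, and that of 5 muscle and heart markers, led by Myh7, 6.22 to 9.42 FPKM, with Myh6 and Ckm listed at 0 in all libraries. Choroid plexus markers stood apart in library 1, where their sum was 397 FPKM, against 1084 and 1311 FPKM in libraries 2 and 3, nearly all of it Ttr. Library 1 held an estimated 3710000 fragments, library 2 held 4140000 and library 3 held 6040000.

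Camk2a, which encodes the alpha subunit of excitatory forebrain neurons, was the most abundant of the 10 genes, and the 3 other Camk2 genes were each lower than it by more than 2-fold. Camk2b, the gene of the actin-binding beta subunit, had 199.5, 170.5 and 215 FPKM in libraries 1, 2 and 3. Camk2g, the gene of the gamma subunit found in many tissues, had 58.2, 59.9 and 52.1 FPKM, and Camk2d, the gene of the delta subunit best known from the heart, had 17.4, 14.7 and 12.4 FPKM. Camk2a had 715, 863 and 882 FPKM in the same libraries. The order Camk2a, Camk2b, Camk2g, Camk2d was the same in 3 of 3 libraries, and the ranges of the 4 genes did not overlap.

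In log2(FPKM + 1), Camk2b differed from Camk2a by -2.07 (SE 0.163), Camk2g differed by -3.83 (SE 0.161) and Camk2d by -5.71 (SE 0.180), each lower in 3 of 3 libraries (limma's treat test for a change beyond 2-fold, with Benjamini-Hochberg adjustment over all genes, adjusted p = 3.18e-05, 3.61e-09 and 9.19e-11). All 9 other members were called lower in this test, but so were 97.6% of the 13336 genes tested, and 0.225% were called higher. The count of 9 of 9 is therefore near the background and is no result about the family. Camk2a itself ranked 104 by mean level of 19046 genes that were above 0 in any library. The median difference from Camk2a was -3.83 for the 9 members and -6.18 for all genes tested. All differences from Camk2a share its values, so these calls are not independent of each other.

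Within the summed FPKM of the 4 Camk2 genes, Camk2a made up 72.2%, 77.9% and 75.9% in libraries 1, 2 and 3, a mean of 75.3% ± 2.87 (SD, n = 3). Camk2b followed with 20.1%, 15.4% and 18.5%, a mean of 18.0% ± 2.42. Camk2g gave 5.26% ± 0.704 and Camk2d 1.38% ± 0.348. The alpha and beta genes together thus carried nearly all of the Camk2 level in each library. The ratio of Camk2a to Camk2b was 3.59, 5.06 and 4.10, a mean of 4.25 ± 0.749, and that of Camk2a to Camk2d was 41.2, 58.9 and 71.3, a mean of 57.1 ± 15.1. In mixed tissue, fewer cells of a type and less RNA per cell cannot be told apart, so these shares are not the makeup of the kinase in any 1 cell type.

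**Figure D1:**
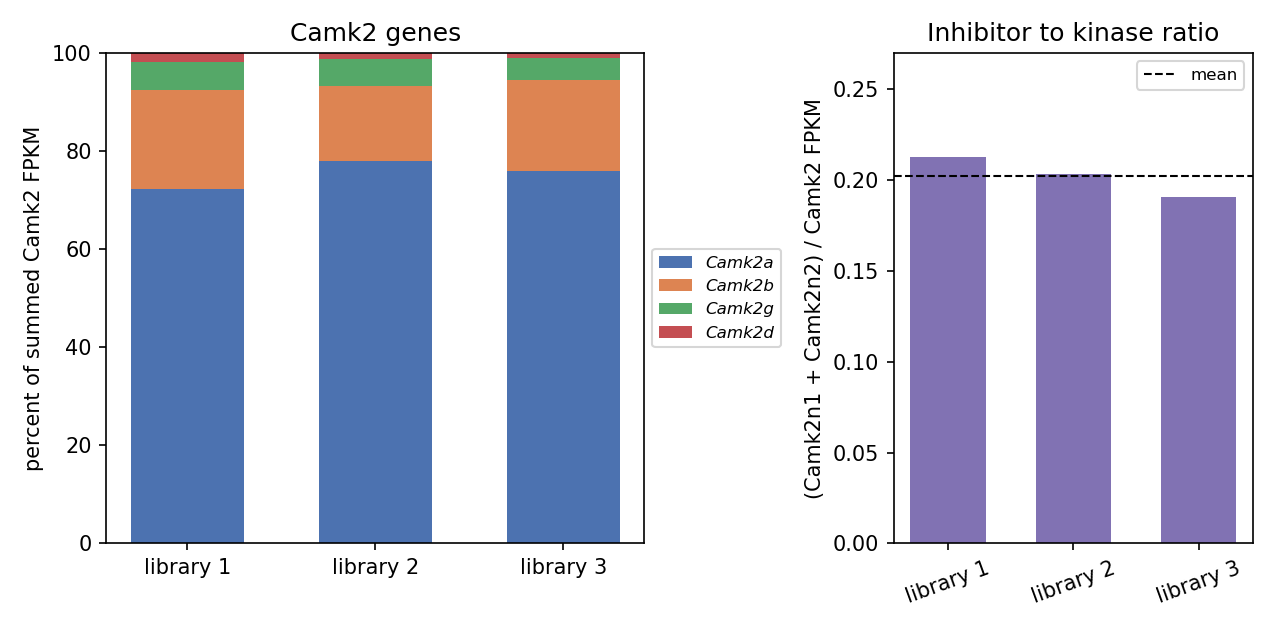
Left, the percent of the summed FPKM of the 4 Camk2 genes that each gene made up, with 1 bar per library. Right, the summed FPKM of Camk2n1 and Camk2n2 divided by that of the 4 Camk2 genes, with 1 bar per library and the mean as a dashed line. Camk2a takes 72.2% to 77.9% of each bar on the left, and the ratio on the right lies between 0.191 and 0.213.

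Both inhibitor genes lay below Camk2a and Camk2b and above Camk2g and Camk2d in each of the 3 libraries. Camk2n2, the gene of the beta inhibitor, had 90.0, 88.9 and 112 FPKM. Camk2n1, the gene of the alpha inhibitor, had 121, 136 and 109.5 FPKM. Camk2n2 was the lower of the 2 in libraries 1 and 2 but not in library 3, and the ranges overlapped. The difference of Camk2n2 from Camk2n1 was -0.33 (SE 0.168) and did not pass the test of no difference (limma, adjusted p = 0.0766), in which 92.2% of all genes were called lower than Camk2n1. It passed without replicate 3 (adjusted p = 0.0217, difference -0.51) and when only genes with a mean of at least 5 FPKM were tested (adjusted p = 0.0390).

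Taken as a sum, the inhibitors reached 211, 225 and 222 FPKM, a mean of 219 ± 7.46 (SD, n = 3), and the 4 Camk2 genes 991, 1108 and 1161 FPKM, a mean of 1087 ± 87.4. The ratio of the sums was 0.213, 0.203 and 0.191, with a mean of 0.202 ± 0.0110. The sum of the inhibitors varied less between libraries than either inhibitor gene by itself, whose SDs were 13.1 FPKM for Camk2n2 and 13.3 FPKM for Camk2n1. Against Camk2a, Camk2n2 differed by -3.07 (SE 0.157) and Camk2n1 by -2.74 (SE 0.162), and both were called lower.

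Camkv encodes a vesicle-associated protein built like a CaM kinase but without kinase activity, found at synapses. Its level was 185, 174 and 217 FPKM, next to the 199.5, 170.5 and 215 FPKM of Camk2b. Camkv was lower than Camk2b in 1 of 3 libraries and slightly higher in the other two. The difference of -0.02 (SE 0.153) did not pass the test of no difference (limma, adjusted p = 0.890), in which 95% of all genes were called lower than Camk2b. The ratio of Camk2b to Camkv was 1.08, 0.982 and 0.990. At 192 ± 22.5 FPKM (SD, n = 3), Camkv ranked 536 of the detected genes, ahead of both inhibitors and of 2 of the 4 Camk2 genes.

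The upstream kinases and CaM kinase IV were at lower levels. Camkk2, whose product also activates the AMP-activated protein kinase, had 30.8, 32.1 and 33.4 FPKM. Camkk1 had 20.3, 18.9 and 18.1 FPKM. Camkk2 was above Camkk1 in 3 of 3 libraries without overlap, at 1.69 ± 0.160 times its level (SD, n = 3). Camk4, the gene of the nuclear kinase that phosphorylates the transcription factor CREB, had 22.4, 24.2 and 17.6 FPKM. Its range took in the whole range of Camkk1 and lay below that of Camkk2. The difference of Camkk1 from Camk4 was -0.15 (SE 0.234), which did not pass (limma, adjusted p = 0.562), while 60.1% of all genes were called lower than Camk4.

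The 10 genes ordered by mean level were Camk2a, Camk2b, Camkv, Camk2n1, Camk2n2, Camk2g, Camkk2, Camk4, Camkk1 and Camk2d. In 6 of the 9 neighbouring pairs of this order the lower gene passed the test of no difference (limma, Benjamini-Hochberg adjusted over all genes). The order, and with it the pairs and the direction of each difference, came from the same values that were tested. These p-values therefore describe the order and are no independent support for it. The pairs that did not were Camkv and Camk2b, Camk2n2 and Camk2n1, and Camkk1 and Camk4. Among those that did, Camk2n1 differed from Camkv by -0.65 (SE 0.174, adjusted p = 0.00248), with 94.9% of all genes called lower than Camkv. Camk2g differed from Camk2n2 by -0.76 (SE 0.191, adjusted p = 0.000168, 89.6% lower), and Camkk2 from Camk2g by -0.80 (SE 0.118, adjusted p = 0.000573, 83.4% lower). Camk4 differed from Camkk2 by -0.57 (SE 0.134, adjusted p = 0.00819, 73.3% lower). Camk2b passed against Camk2a in this test too (adjusted p = 1.54e-07, 98.8% lower). Camk2d differed from Camkk1 by -0.36 (SE 0.108, adjusted p = 0.0228, 60% lower), but this call was lost without replicate 2 (adjusted p = 0.0826) or replicate 3 (adjusted p = 0.112). Except for Camk2b and Camk2a, no neighbouring difference passed a null of at most 2-fold. Which transcript length each FPKM was divided by is not given, and coding transcripts of at least 1000 bases ran from 1734 to 4970 bases for Camk2a alone.

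**Figure D2:**
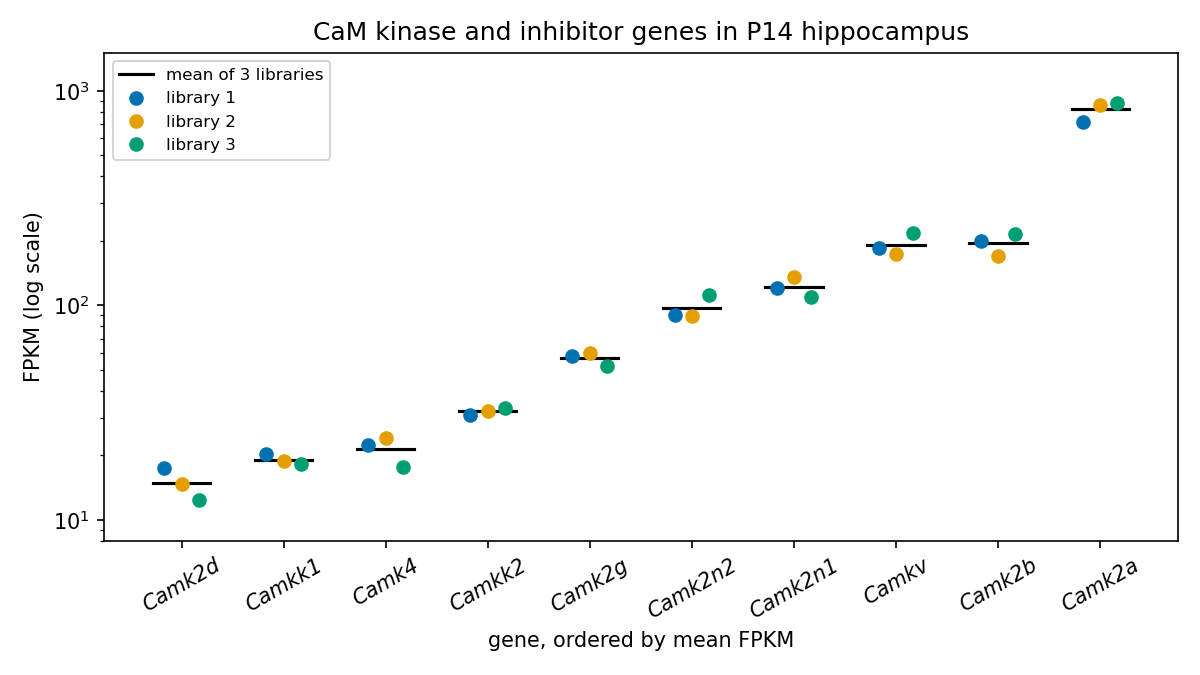
FPKM on a log axis for each of the 10 genes, ordered by mean, with 1 point per library and a line at the mean of 3 libraries. Camk2a stands alone between 715 and 882 FPKM, Camkv and Camk2b overlap, and Camk2d is lowest with 12.4 to 17.4 FPKM.

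The coefficients of variation of the 10 genes over the libraries (CV, SD over mean) ran from 4.01% for Camkk2 to 16.9% for Camk2d, with a median of 11.4%, against 13.8% over all genes with a mean of at least 1 FPKM. For 8 of the 10 the CV was under that median, the exceptions being Camk4 at 16.0% and Camk2d. All 10 genes also lay above the median level of the genes compared, 10.5 FPKM. The CVs were not compared with those of genes of like level, so the count is no result about the family. No library was high or low throughout: 5 genes were highest in library 3, namely Camk2a, Camk2b, Camkv, Camk2n2 and Camkk2, and the other 5 were lowest there.

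The spread was set beside the counting error, which rests on the estimated depth and, first, on the longest coding transcript of each gene. Whether the spread exceeds counting error was not tested. With its longest coding transcript, Camk2a rested on about 12449, 16827 and 24977 fragments, a counting error of 0.896%, 0.771% and 0.633%, far under its CV of 11.1%. Camkk2 rested on about 523, 611 and 923 fragments, a counting error of 4.37%, 4.04% and 3.29%, which is close to its CV. Camkk1 rested on about 236, 248 and 344 fragments, and its CV of 5.61% likewise lay between its counting errors of 5.39% and 6.51%. The 2 genes of widest spread, Camk4 and Camk2d, had counting errors of 6.22% to 7.03% and 5.05% to 5.59%. Shorter transcripts of the same genes would give fewer fragments and a wider error. With the shortest coding transcript of at least 1000 bases, it was 7.86% to 10.4% for Camkk2 and 11.0% to 13.3% for Camkk1. Both lay above the CV of the gene, while 1.14% to 1.61% for Camk2a stayed under its CV. These figures cover counting error only.

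Camk2a was lowest in library 1, at 715 FPKM, against 863 and 882 FPKM in libraries 2 and 3, and library 1 was also the one with the low choroid plexus sum of 397 FPKM. Of the 7 hippocampal field markers, 5 were lowest in library 1, where their sum was 245 FPKM, against 298 and 291 FPKM in libraries 2 and 3, and 5 of 6 astrocyte markers were lowest there too. Highest in library 1 were 5 of 6 excitatory neuron markers and 5 of 8 markers of cerebellum and striatum. The exception among the excitatory neuron markers was Slc17a7, with 448, 415 and 492 FPKM in libraries 1, 2 and 3. The sum of that list was 776, 692 and 755 FPKM. The part of these differences in the level of Camk2a was not tested.

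**Figure D3:**
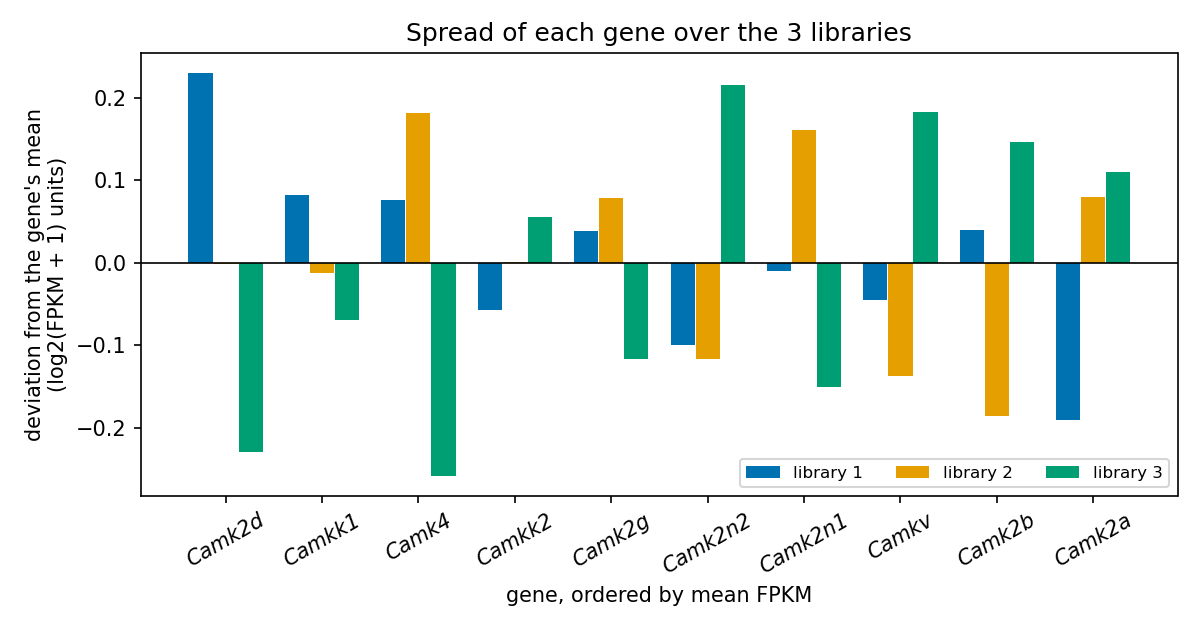
Deviation of each library from the gene's own mean, in log2(FPKM + 1) units, with 1 bar per library for each of the 10 genes. Bars of library 3 point up for Camk2a, Camk2b, Camkv, Camk2n2 and Camkk2 and down for the other genes.

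Genes whose levels over the 3 libraries lay nearest to those of 3 members were picked by distance in log2(FPKM + 1) among 13327 other genes. Nearest to Camk2a were the ribosomal protein genes Rps7, with 750, 859 and 859 FPKM (distance 0.0777), and Rps27a (distance 0.0947), and between them Cck, the gene of the neuropeptide cholecystokinin, with 701, 821 and 889 FPKM (distance 0.0782). Nearest to Camk2b were Gpi1, the gene of a glycolytic enzyme (distance 0.0564), Clip3 and Ndrg3. Nearest to Camk2n1 were Psma5, a proteasome subunit gene (distance 0.0863), Thoc7 and Apoo. With 3 libraries of 1 group, such likeness is mainly likeness of level.

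Genes that work with the CaM kinases were set against Camk2a in the same test. Over 7 lists with 73 genes, 67 were tested, of which 60 were lower by more than 2-fold, 1 was higher and 6 were not called. The median difference was -5.08, against -6.18 for all genes tested, of which 97.6% were called lower. The counts of lower genes in the single lists below, where all tested genes of a list were called, are near that share and are no result about those lists. The 6 genes not tested were under a mean of 1 FPKM: Calm4, Calm5 and Calml3 were listed at 0 in all libraries, and Ppp3r2, Mylk3 and Dapk2 were above 0 in at least 1.

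Calmodulin genes were among the most abundant genes of these lists. Calm2 had 2569, 2497 and 2302 FPKM and was the 1 gene of these lists called higher, by 1.59 (SE 0.162, adjusted p = 0.00234, higher in 3 of 3 libraries). Calm3, with 945, 887 and 973 FPKM, was not called, at a difference of 0.19. Calm2 and Calm3 encode the same protein. Calml4, a calmodulin-like gene, was lower, with 8.40, 5.30 and 10.8 FPKM.

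Of the 6 genes of calmodulin buffers in neurons, 2 were lower than Camk2a and 4 were not called. Nrgn, the gene of the postsynaptic calmodulin-binding protein neurogranin, had 1096, 1116 and 1084 FPKM, a difference from Camk2a of 0.43. Pcp4 averaged 446 ± 17.9 FPKM and Gap43, the growth cone gene, 374 ± 25.7 FPKM (SD, n = 3 each). Nrgn and Calm3 thus stood at levels not shown to differ from Camk2a by over 2-fold.

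All 13 synaptic partners and substrates of CaM kinase II were lower than Camk2a, with a median difference of -3.64. Dlg4, the gene of the scaffold PSD-95, led with 279, 315 and 319.8 FPKM, a difference of -1.42 (adjusted p = 0.00958). Syn1, the gene of the vesicle protein synapsin I, averaged 96.8 ± 16.9 FPKM and Gria1, an AMPA receptor subunit gene, 93.8 ± 9.45 FPKM. Grin2b, which encodes the NMDA receptor subunit that docks the kinase, had 4.47, 3.42 and 5.09 FPKM.

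Among phosphatases that act on CaM kinases all 7 were lower, with a median difference of -3.35. The catalytic subunit gene Ppp1ca of protein phosphatase 1 averaged 220.1 ± 15.2 FPKM, Ppp1cc 107 ± 7.83 FPKM and Ppp1cb 101 ± 11.1 FPKM. For calcineurin, the calcium-dependent phosphatase that shares calmodulin with the kinases, all 9 genes tested were lower. Its regulatory subunit gene Ppp3r1 averaged 278 ± 20.5 FPKM, and the catalytic subunit genes Ppp3ca 199 ± 19.9 and Ppp3cb 145 ± 19.2 FPKM.

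All 12 tested kinases of the list of other calmodulin-regulated or related kinases were lower than Camk2a. Pnck, also called CaM kinase I beta, had 59.4, 70.0 and 57.2 FPKM and Camk1 had 40.9, 45.6 and 42.2 FPKM, both above the 22.4, 24.2 and 17.6 FPKM of Camk4 in each library. Phkg2, a phosphorylase kinase subunit gene, averaged 29.4 ± 3.16 FPKM. The ratio of Camk1 to Camk4 was 1.82, 1.88 and 2.40.

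All 16 genes of the list of Camkk and Camk4 targets were lower, with a median difference of -6.26, close to that of all genes. The list takes in regulatory subunit genes of the AMP-activated protein kinase, so not each of its genes encodes a direct target. Prkag2, a regulatory subunit gene of the AMP-activated protein kinase, averaged 58.2 ± 6.85 FPKM and Prkag1 33.2 ± 0.714 FPKM. Hdac5, a histone deacetylase gene whose product CaM kinases export from the nucleus, had 35.9, 33.5 and 56.5 FPKM, with library 3 the high one. Creb1 itself had 3.78, 5.61 and 5.02 FPKM.

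**Figure D4:**
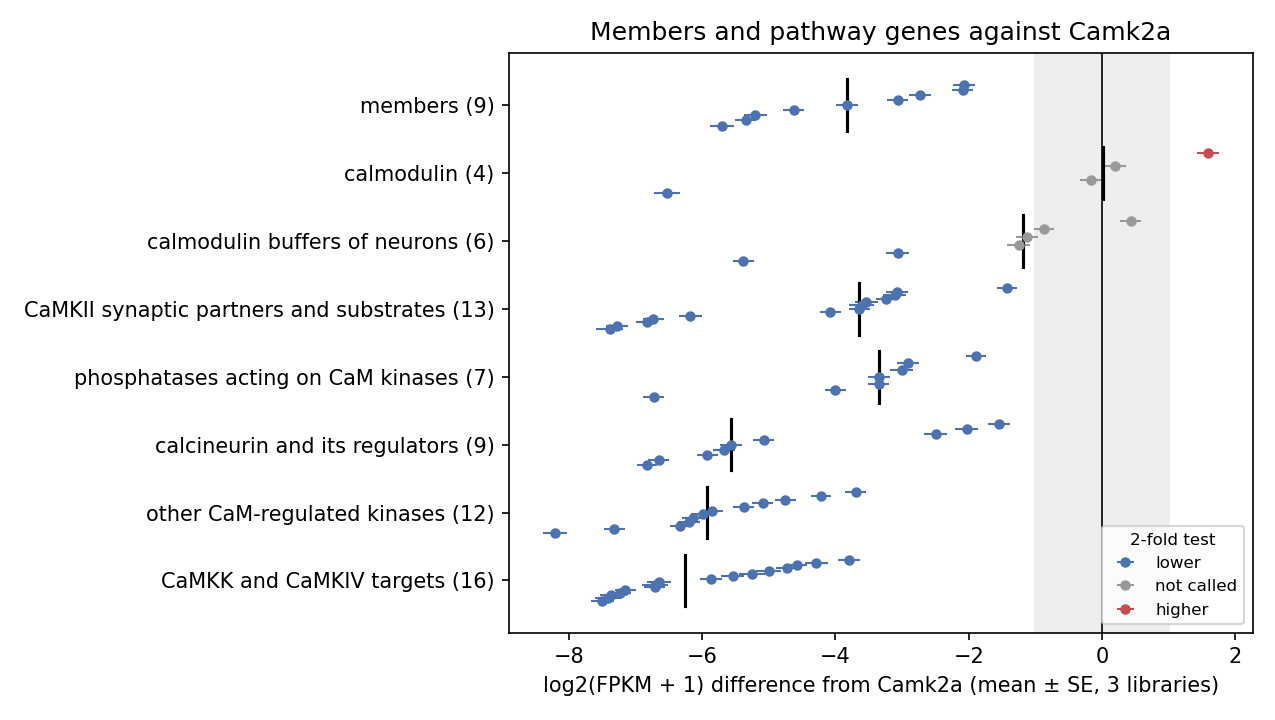
Difference of each gene from Camk2a in log2(FPKM + 1), as mean ± SE over 3 libraries, for the 9 other members and the tested genes of 7 pathway lists, with the number of genes in parentheses. The black bar is the median of the list and the grey band marks differences within 2-fold. Calm2 is the point called higher, 6 points are not called, and all others lie to the left.

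All 10 genes are annotated as protein coding in RefSeq on GRCm38. Camk2a lies on chromosome 18 from 60925307 to 60988152 and Camk4 on the same chromosome from 32934941 to 33195767, both on the plus strand. Camk2b, from 5969629 to 6066357 on the minus strand, and Camkk1, from 73016043 to 73042073 on the plus strand, share chromosome 11. Camkk2 lies on chromosome 5 from 122718380 to 122779522 on the minus strand and Camkv on chromosome 9 from 107935851 to 107949691 on the plus strand. The Camk2 genes have many transcripts, from 6 coding ones for Camk2a to 11 for Camk2d in GENCODE, whereas each inhibitor gene has 1. The longest coding transcript of Camk2a has 4970 bases in 18 exons. That of Camk2n1 has 4444 bases in 2 exons for a protein of 78 residues, and that of Camk2n2 has 1291 bases in 2 exons for 79 residues.

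Some values may hold fragments of overlapping genes, since it is not given whether strand was used in counting. Camkk2 overlaps P2rx4 in RefSeq, which had 3.74, 3.86 and 4.59 FPKM. Camk4 overlaps the antisense gene 2310026I22Rik, listed at 0.26, 0 and 0 FPKM. The longest coding transcript of Camk4 shares 0.862% of its 50-base stretches with transcripts of 1 other gene. Camk2n2 overlaps the protein-coding gene Eef1akmt4-ece2, for which no level was listed under that symbol. Camk2d overlaps the antisense gene Gm15551, listed at 0 in all libraries, and GENCODE genes on its own strand with no level listed under their symbols. Camkv overlaps the antisense gene Gm37974, which likewise had no level listed under its symbol. Camk2a overlaps Mir7220 and Mir6982, listed at 0 in all libraries, and Gm46632, with no level listed under that symbol. Camkk1 overlaps 4732414G09Rik in RefSeq, listed at 0, 0.11 and 0 FPKM. Camk2b, Camk2g and Camk2n1 overlap no other annotated gene in either annotation.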

How the data were processed

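Total RNA of whole hippocampus from wild-type mice was sequenced as paired reads of 150 bases, per the labels' protocols, and the 3 libraries form 1 group. The deposited table holds FPKM as made by the authors, a column for each library, per the file headers, tied to the samples through the number that ends each title. Bowtie2 and GRCm38 (mm10) are named in the submitters' processing notes. No counting tool, annotation, strand setting or version is given in the sources used here. FPKM were used without further scaling.

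The comparison scale was log2(FPKM + 1), on which the differences of low genes come out too small. Genes averaging 1 FPKM or more, 13337 in all, were each set against 1 anchor gene by their difference within every library. These differences went into limma 3.58.1 (R 4.3.3), two-sided. For Camk2a as anchor the treat function tested for more than 1 log2 unit, and for neighbours in the order of means the null was no difference. P-values were Benjamini-Hochberg adjusted over all genes within the fit of each anchor, not across the neighbouring pairs, with calls under 0.05. Since most genes were called against each anchor, the adjustment changed the p-values of the members little. For Camk2b against Camk2a the treat p-value went from 3.05e-05 to 3.18e-05. An exact sign-flip test of 3 libraries could not pass that threshold and was not used. The treat test against Camk2a was checked on simulated data, in which most genes lay within 2-fold of the anchor, unlike in these data. The test of no difference was not checked in this way.

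Depth was estimated from genes with 1 GENCODE transcript of at least 800 bases, by choosing the depth and the bases taken off the length so that values of at most 4 fragments came out whole. Within a tolerance of 0.15, 93.5%, 92.4% and 91.4% did in libraries 1, 2 and 3, on the same values used for the choice. The estimate was not planned and came after seeing the data. In a transcript of 2 kb, 3 fragments were 0.470, 0.417 and 0.289 FPKM.

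The members and lists were chosen with earlier results of these data known. Named were all members, the 3 highest genes of each pathway list and any called higher than Camk2a, the highest gene of each marker list and markers at 0, and the 3 genes nearest to Camk2a, Camk2b and Camk2n1. Grin2b, Creb1, Calml4 and the genes of under 1 FPKM were named outside this rule, after their values were seen. 1 gene that the rule names is not reported here. Alternatives were another pseudocount, other filters, median-of-ratios scaling, the other null and leaving out each library. Python 3.11.15 with pandas 2.3.3, numpy 2.4.6, Biopython 1.88 and matplotlib 3.10.9 was used.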

Additional observations from a re-analysis of the deposited data

How the results depend on the processing

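No paired analysis was possible because there is no second group of samples to pair with. The differences between genes were themselves formed within each library. All 72 alternative values of the 9 members against Camk2a kept their sign and passed the test. Without replicate 2 or 3, however, the fit gave every member the same SE, 0.298 or 0.279. Those p-values thus do not rest on the spread of each gene, and the values of Camk2a are shared by all the differences. The count of 72 is therefore no measure of how firm each call is. The other counts moved by at most 1.5 times, except that with a null of no difference 73 genes were called higher than Camk2a, against 30, and that with a null of at most 1 log2 unit the neighbouring pairs that differ numbered 1, against 6. Of the 72 alternative values of the 9 pairs, 62 kept their sign and call, 7 lost the call, 2 gained it and 1 changed sign. The change of sign was in Camkv against Camk2b, a pair not called, whose difference ran from -0.046 to 0.021 when 1 library was left out. The share of Camk2a in the Camk2 sum lay between 74.1% and 76.9% and the inhibitor ratio between 0.197 and 0.208 over their alternatives. All members lay far above the 0.289 to 0.470 FPKM that 3 fragments give in a transcript of 2 kb.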

Other observations

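The summed level of the CaM kinase kinase genes was 51.0, 51.0 and 51.5 FPKM in libraries 1, 2 and 3, a mean of 51.2 ± 0.272 FPKM (SD, n = 3). Camkk1 ranged from 18.1 to 20.3 FPKM and Camkk2 from 30.8 to 33.4 FPKM. With the longest coding transcripts, counting errors were 5.39% to 6.51% for Camkk1 and 3.29% to 4.37% for Camkk2. These are wider than the spread of the sum, so its evenness is no result about the genes. The Camkk sum was 2.28, 2.11 and 2.93 times the level of Camk4. This sum was looked at after the values were seen, with no test.

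Mylk3, a myosin light chain kinase gene known from the heart and a member of the list of related kinases, had 0.10, 0.09 and 2.76 FPKM in libraries 1, 2 and 3, so that library 3 alone was above 1 FPKM. Camk2a made up 49.0%, 54.6% and 52.8% of the summed FPKM of the 10 members, a mean of 52.1% ± 2.84 (SD, n = 3).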
